A study of Mus musculus with 6 samples.

Results

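The respiratory chain of the inner mitochondrial membrane is built from proteins of the nuclear genome and a few of mitochondrial DNA. The genes described here are its nuclear-encoded subunits, measured as ribosome-bound transcripts in the corpus callosum of mice with and without cuprizone. Members were taken by symbol. They are the protein-coding genes whose mouse GENCODE symbol begins with Ndufa, Ndufb, Ndufc, Ndufs, Ndufv, Uqcr, Cox4, Cox5, Cox6, Cox7, Cox8 or Atp5, together with Sdha, Sdhb, Sdhc and Sdhd. The annotation holds 94 such genes, and 93 of them are among the 39017 genes counted. By name 38 fall to complex I, 4 to complex II, 8 to complex III, 18 to complex IV and 17 to complex V. The remaining 8 are Ndufaf genes, which share the Ndufa prefix but encode assembly factors of complex I, and they are given apart. Ndufa4 and Ndufa4l2 are counted with complex I by symbol, although the NDUFA4 protein is found in complex IV.

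All 6 libraries came from C57BL/6 mice that carried RiboTag and Olig1-Cre, controls included. In these animals Cre driven by the Olig1 promoter switches on an HA-tagged RPL22, a protein of the large ribosomal subunit, and tagged ribosomes with their RNA are pulled down with an antibody against HA. The labels name the tissue as corpus callosum and the cells as oligodendrocytes, but Olig1 is also active in progenitors of that lineage and Cre recombines wherever the promoter has been on. There were 3 control libraries, labelled 24, 26 and 27, and 3 cuprizone libraries, labelled 30, 31 and 32. The protocol describes females aged 8 to 10 weeks given 0.2% cuprizone, a copper chelator that kills oligodendrocytes, for 6 or 9 weeks, with a 3 week recovery afterwards. Which of these stages the cuprizone libraries represent is not told there, nor whether each library is 1 animal, so p-values measure the spread between these libraries.

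Library totals ran from 18549360 to 22381307 counts. The 10 markers of mature oligodendrocytes were all lower in the cuprizone libraries, with a median log2 fold change of -3.08 and a summed level of 61389 to 83131 CPM (read counts scaled to a common library size) in control and 8034 to 15030 CPM in cuprizone. Astrocyte markers summed to between 15416 and 29596 CPM in every library, so the pull-downs held transcripts of other cells as well. Markers of endothelial and mural cells were highest in cuprizone 32, and that library also had the highest sums of the neuron list and of the microglia and macrophage list. In bulk pull-downs, fewer cells of a type and less RNA per cell cannot be told apart.

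Complex I takes electrons from NADH and complex II from succinate. Both pass them through ubiquinone to complex III, then by cytochrome c to complex IV, which reduces oxygen and holds copper in its catalytic core. Complexes I, III and IV pump protons, and complex V, the ATP synthase, lets them flow back to make ATP. Mature oligodendrocytes rely heavily on glycolysis, and loss of complex IV assembly in them is tolerated in adult mice, while cuprizone is known for enlarged mitochondria and lower complex IV activity in affected tissue.

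No member of the respiratory chain passed the test between cuprizone and control. Of the 93 members 86 had enough counts to be tested, and 0 of these reached a Benjamini-Hochberg adjusted p of 0.05 with edgeR's quasi-likelihood test or with limma-voom. Across all genes tested 7.57% passed with edgeR, 1.87% as higher and 5.7% as lower in cuprizone, and 7.51% passed with limma-voom. With edgeR 3 members had an unadjusted p under 0.05, namely Ndufaf2, Ndufb11 and Ndufab1, each lower in cuprizone, where 23.3% of all genes had one. DESeq2 called 1 member, Ndufaf2, as lower with an adjusted p of 0.0381, while it called 13.7% of all genes and 8.46% as lower.

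The fold changes of the members lay close together. The median size of a member's log2 fold change, whichever its direction, was 0.10, against 0.25 over all genes tested and 0.21 over the 8147 genes with a mean of at least 20 CPM. The standard deviation of the log2 fold changes was 0.17 for the members and 0.64 for all genes. For 83 of 86 members, or 96.5%, the 95% interval of the fitted change lay wholly inside a 2-fold change in either direction, and for 70 members, or 81.4%, inside 1.5-fold. The same shares were 66.2% and 35.3% over all genes and 79.3% and 49.9% over the abundant ones. The 3 members with wider intervals were Ndufs5, Cox4i2 and Cox7a1, the last of them at 0.54 to 1.77 CPM in all libraries.

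**Figure D1:**
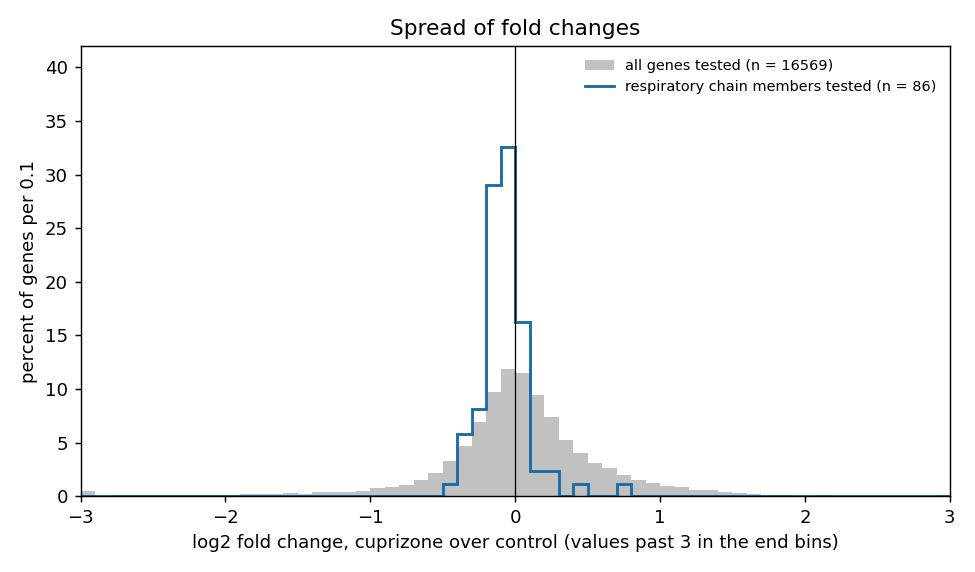
The share of genes (vertical axis, percent per 0.1 of the log2 scale) at each log2 fold change of cuprizone over control (horizontal axis) is drawn for all 16569 genes tested in grey and for the 86 members in blue. The members form a narrow peak just below 0, with a median of -0.09 against 0.02 for all genes.

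The narrow peak sat slightly below 0. Of the tested members 66 had a negative fold change and 20 a positive one, so 76.7% were negative, against 47.4% of all genes and 53.7% of the abundant genes. The median log2 fold change was -0.09 over the members and 0.02 over all genes tested. The size of this lean followed the choice of libraries, and its place relative to 0 also followed the scaling. Without cuprizone 30 the median was -0.03 with 49 members negative, and without cuprizone 32 it was -0.17 with 70 negative. Upper-quartile scaling, which moved the median of all genes to 0.08, left 53 members negative. The median of the members minus that of all genes was -0.11 in the main fit and -0.11 with upper-quartile scaling. That difference was -0.04 without cuprizone 30 and -0.18 without cuprizone 32.

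The groups did not overlap for 9 of the tested members. In 8 of them, 9.3% of those tested, each cuprizone library lay below each control library, where 17.6% of all genes did so. In 1, Ndufaf6, each cuprizone library lay above the controls, as did those of 12.6% of all genes. The 8 lower genes were Ndufa10, Ndufab1, Ndufb11 and Ndufs7 of complex I, the assembly factor Ndufaf2, Sdhd of complex II and Uqcrc1 and Uqcrc2 of complex III. Both shares were below those of all genes.

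**Figure D2:**
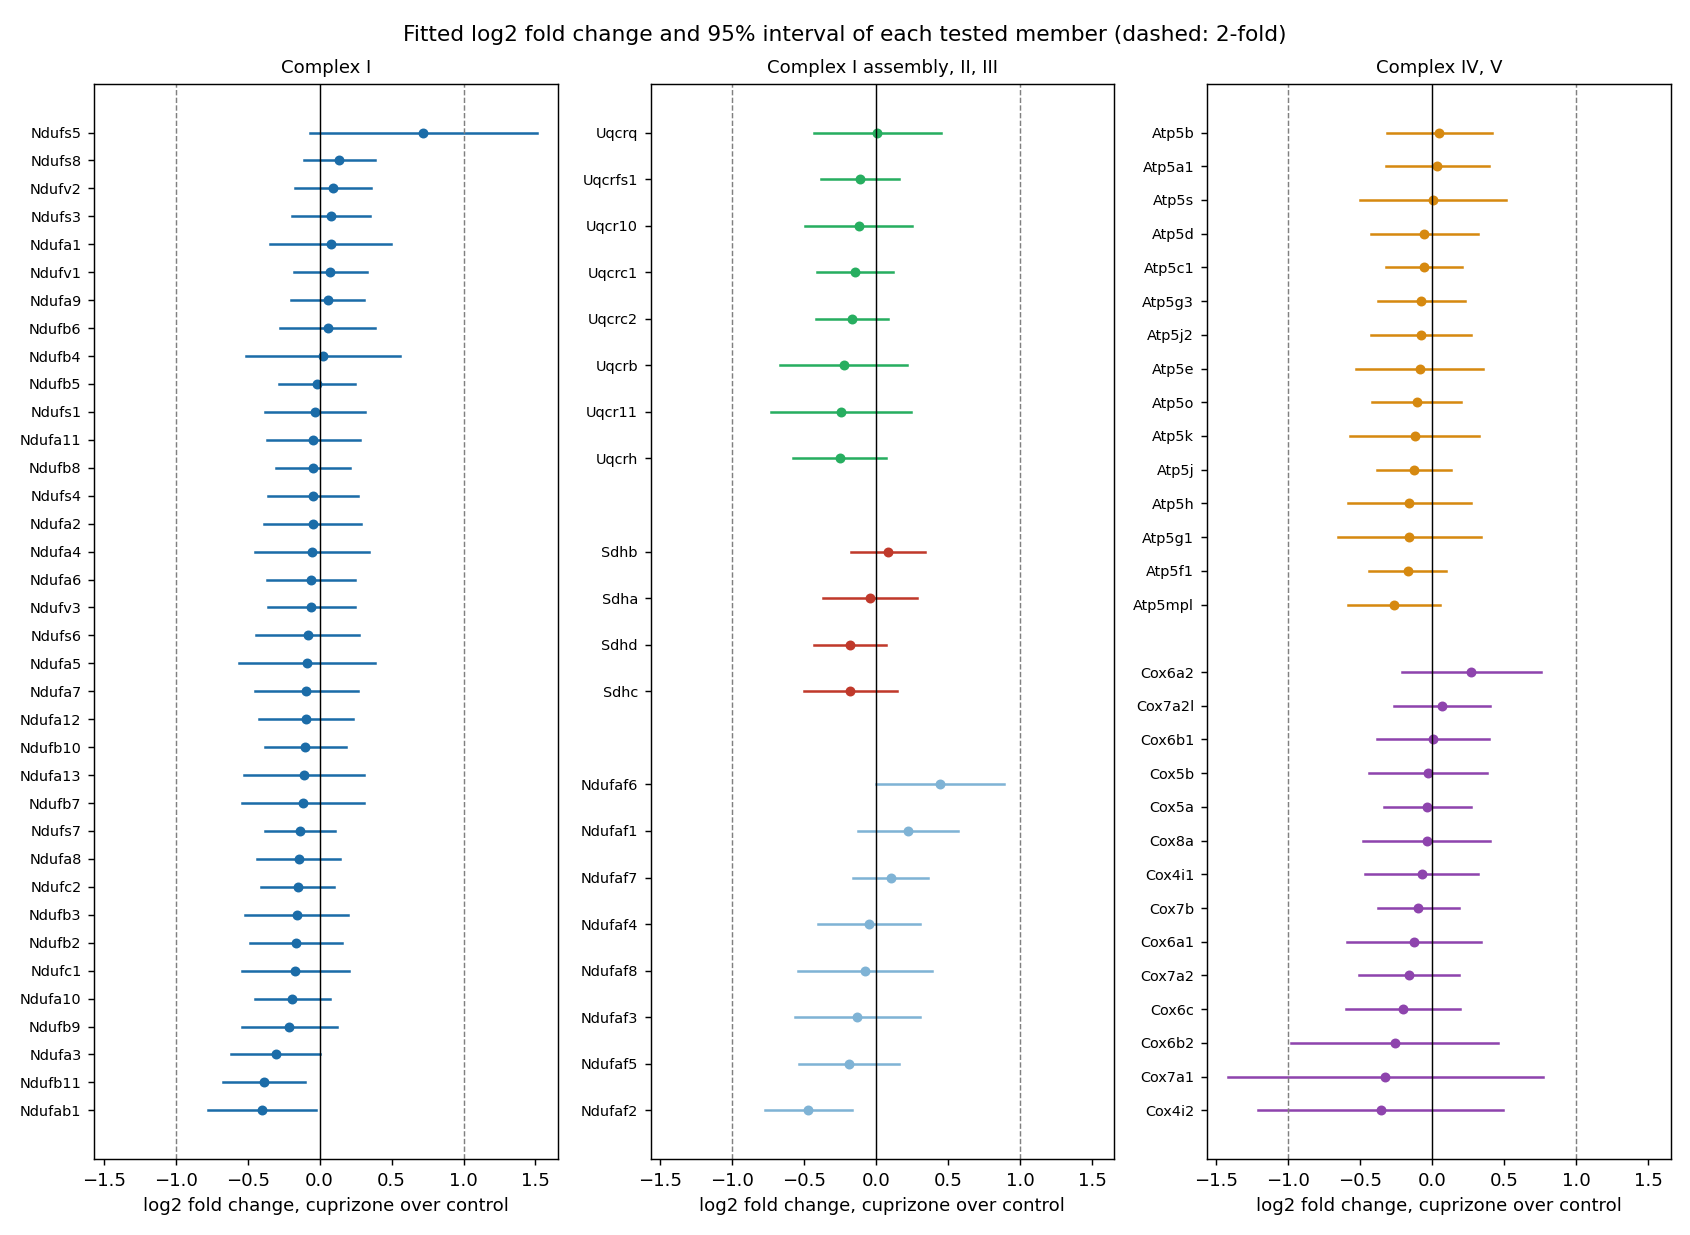
Each row is 1 tested member (1 is not drawn), with its fitted log2 fold change of cuprizone over control as a point and the 95% interval as a line, coloured by complex (horizontal axis on the log2 scale, dashed lines at 2-fold). The lines drawn stay between the dashed lines except those of Ndufs5, Cox4i2 and Cox7a1, and those of Ndufaf2, Ndufb11 and Ndufab1 stay below 0.

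Summed over all members, the chain took 0.791% to 0.986% of the counts of a library. The sums were 8730, 8414 and 9374 CPM in controls 24, 26 and 27 and 7835, 8571 and 9051 CPM in cuprizone 30, 31 and 32, all with library sizes scaled by TMM. The ranges overlapped, and cuprizone 30 was the only library below the controls. The ratio of the group means was 0.96. Its direction turned with the scaling, since the same ratio with unscaled library sizes was 1.12. The 10 markers of mature oligodendrocytes took up to 7.6% of the counts in a control library and as little as 0.875% in a cuprizone library. They enter that unscaled total, and their part in the turn was not tested.

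Complex I, the entry point for NADH, had a summed level of 2684, 2498 and 2796 CPM in controls 24, 26 and 27. In cuprizone 30, 31 and 32 it was 2312, 2546 and 2732 CPM. The core subunits on the electron path named here had small fold changes relative to their errors. Ndufv1, which binds NADH and flavin, ran from 154 to 162 CPM in control and from 160 to 174 CPM in cuprizone, a log2 fold change of 0.07 ± 0.11 (SE). Ndufs1, with the largest number of iron-sulphur clusters of the complex, stood at 75.0, 96.7 and 85.4 CPM and at 91.9, 88.0 and 71.6 CPM. Ndufv2, an iron-sulphur protein, had a log2 fold change of 0.09. The values of these 3 genes overlapped between groups.

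A few accessory subunits of complex I were lower in each cuprizone library without passing the test. Ndufb11, a membrane-arm subunit on the X chromosome, stood at 79.1, 67.4 and 82.5 CPM in controls 24, 26 and 27 and at 53.8, 59.95 and 61.7 CPM in cuprizone 30, 31 and 32. The groups did not overlap, and the log2 fold change was -0.38 ± 0.12 (SE) with an edgeR adjusted p of 0.112. Ndufab1 encodes the mitochondrial acyl carrier protein, which serves both in the complex and in mitochondrial fatty acid synthesis. Its levels were 6.72, 6.40 and 7.11 CPM in control and 4.55, 5.22 and 5.57 CPM in cuprizone, again without overlap (log2 fold change -0.40 ± 0.16, edgeR adjusted p of 0.191). Of its 50-base windows 12.3% also occur in another gene, and of those of Ndufb11 17.5% do. Scaled by exonic length, Ndufc2 had the highest level of the complex at 127 RPKM (CPM divided by exonic length in units of 1000 bases), with Ndufa2 and Ndufb9 close behind at 121 and 119 RPKM. Scaled by the principal transcript instead, Ndufb9 came first at 174 RPKM.

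Ndufs5 had the largest positive fold change of the members, and 31.1% of its 50-base windows also occur in a copy. The gene encodes a small accessory subunit held by disulphide bonds in the intermembrane space. Its processed copy BC002163 on chromosome 16 matches the coding sequence over 319 bases with 2 mismatches. The first 240 coding bases of both are shown, since reads over this stretch could go to either gene, with the bases of the copy that differ in capitals (GENCODE M21 on GRCm38, strand of each gene).
Ndufs5, chr4:123712710-123718202, minus strand: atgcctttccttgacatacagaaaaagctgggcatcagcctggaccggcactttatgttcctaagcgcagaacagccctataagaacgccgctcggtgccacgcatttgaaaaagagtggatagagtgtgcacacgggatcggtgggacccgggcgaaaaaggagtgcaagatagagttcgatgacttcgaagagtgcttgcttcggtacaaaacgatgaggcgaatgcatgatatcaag
BC002163, chr16:42955631-42955949, plus strand: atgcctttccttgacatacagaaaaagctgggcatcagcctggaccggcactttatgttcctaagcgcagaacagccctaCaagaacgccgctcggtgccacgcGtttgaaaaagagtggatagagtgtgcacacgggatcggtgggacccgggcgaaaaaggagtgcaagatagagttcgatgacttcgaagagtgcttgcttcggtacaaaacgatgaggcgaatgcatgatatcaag

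Ndufs5 had 117, 140 and 152 counts in controls 24, 26 and 27 and 149, 385 and 337 counts in cuprizone 30, 31 and 32. Cuprizone 31 and 32 were high, and cuprizone 30, at 6.72 CPM, lay below all controls. The log2 fold change was 0.72 ± 0.33 (SE) with an edgeR adjusted p of 0.248. Without cuprizone 30 it was 1.03 with an adjusted p of 0.0326, the one setting in which a member was called higher. The copy had 510, 502 and 522 counts in control and 503, 467 and 448 in cuprizone, and it passed the test as lower (log2 fold change -0.48 ± 0.11, edgeR adjusted p of 0.0390). That call was lost when any 1 library was left out (adjusted p from 0.0529 to 0.172), with upper-quartile scaling (0.0683), with no filter on low counts (0.0657) and in the fit corrected for GC content and length (0.0983). Summed over both genes, the level was 37.0, 36.4 and 39.3 CPM in control and 29.4, 36.4 and 37.0 CPM in cuprizone. Ndufs5 held 18.7% to 22.5% of the pair's counts in control, 22.9% in cuprizone 30 and 45.2% and 42.9% in cuprizone 31 and 32. In cuprizone 31 and 32 the sum of the pair was thus within or near the control range while the share of Ndufs5 was above it. The part of read assignment in this was not tested.

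The assembly factors of complex I held the member with the smallest adjusted p. Ndufaf2, a chaperone that stays on a late intermediate of the complex, stood at 13.6, 12.98 and 15.2 CPM in controls and at 10.4, 9.41 and 10.4 CPM in cuprizone libraries. The groups did not overlap. The log2 fold change was -0.47 ± 0.13 (SE) with an edgeR adjusted p of 0.0781, and it was 0.0381 with DESeq2. A non-coding gene on the opposite strand, B230220B15Rik, covers 65.7% of the exonic bases of Ndufaf2. Reads over those bases cannot be told apart by gene unless the counting used strand. The principal transcript of Ndufaf2, of 678 bases, shares 0% of its 50-base windows with other genes. Ndufaf6, an early assembly factor, went the other way, with 2.83, 3.34 and 3.03 CPM in control and 4.55, 4.23 and 3.73 CPM in cuprizone (log2 fold change 0.44 ± 0.19, edgeR adjusted p of 0.217). The other 6 factors overlapped between groups, with log2 fold changes from -0.19 (Ndufaf5) to 0.22 (Ndufaf1).

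Complex II, which is also succinate dehydrogenase of the citric acid cycle, is the only complex encoded wholly in the nucleus. Its flavoprotein Sdha stood at 351, 370 and 387 CPM in controls 24, 26 and 27 and at 376, 376 and 322 CPM in cuprizone 30, 31 and 32. The iron-sulphur subunit Sdhb ran from 112 to 124 CPM in control and from 116 to 130 CPM in cuprizone, a log2 fold change of 0.08 ± 0.11 (SE). The membrane anchors leaned lower. Sdhc stood at 210, 186 and 208 CPM in control and at 167, 204 and 162 CPM in cuprizone, with cuprizone 31 among the controls. Sdhd stood at 84.9, 88.9 and 90.3 CPM in control and at 73.1, 84.0 and 76.2 CPM in cuprizone, without overlap (log2 fold change -0.18 ± 0.11, edgeR adjusted p of 0.358).

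Complex III, the cytochrome bc1 complex, had a median log2 fold change of -0.15 with 7 of 8 members negative. That was the lowest median of the complexes, but not without cuprizone 30, 31 or 32, where complex II (-0.11 and -0.16) or complex IV (-0.18) was lower. Its summed level was 876, 841 and 930 CPM in controls and 737, 807 and 864 CPM in cuprizone 30, 31 and 32, with cuprizone 32 inside the control range. Both large core proteins were lower without overlap. Uqcrc1 stood at 180, 196 and 191 CPM in control and 180, 167 and 166 CPM in cuprizone, with control 24 and cuprizone 30 nearly equal. Uqcrc2 stood at 111, 125 and 118 CPM in control and at 107, 103 and 106 CPM in cuprizone. Their edgeR adjusted p values were 0.493 and 0.388. Uqcrfs1, the Rieske iron-sulphur protein, had a log2 fold change of -0.11, and the hinge protein gene Uqcrh the largest negative one of the complex at -0.25. Per exonic length Uqcr10, a small subunit, was highest with a mean of 181 RPKM.

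Complex IV, cytochrome c oxidase, is where copper acts in the chain. With edgeR none of its 14 tested nuclear subunits was called or had an unadjusted p under 0.05, against 7.57% and 23.3% of all genes. In a list this short 0 calls say little. The groups overlapped for each of these 14, while 17.6% of all genes lay lower and 12.6% higher in cuprizone without overlap. Cox4i1, the ubiquitous form of a regulatory subunit, stood at 368, 319 and 376 CPM in controls 24, 26 and 27 and at 280, 343 and 387 CPM in cuprizone 30, 31 and 32. Cuprizone 30 was below the controls and cuprizone 32 above them, and the log2 fold change was -0.07 ± 0.17 (SE). Cox5a and Cox5b, which sit on the matrix side, had log2 fold changes of -0.04 and -0.03. Cox7a2l, a factor that joins complexes III and IV into supercomplexes, had one of 0.07. Per exonic length the highest levels were those of Cox8a at 398 RPKM and Cox6a1 at 362 RPKM, both above Cox4i1 at 223 RPKM, while by principal transcript the 3 genes lay between 445 and 452 RPKM.

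Several complex IV subunits exist in a common form and in one typical of other tissues. In all 6 libraries the common form of each pair compared was the higher one per length. As log2 ratios of RPKM, Cox6a2 (heart and muscle form) over Cox6a1 was -5.49, -4.37 and -5.08 in controls and -4.06, -4.63 and -4.94 in cuprizone. Cox4i2 (lung form) over Cox4i1 was on average -5.96 in control and -6.27 in cuprizone, and Cox7a1 (muscle form) over Cox7a2 was -5.25 and -5.41. Cox6b2 (testis form) over Cox6b1 was -4.91 and -5.13. The last pair compared, Atp5g1 over Atp5g3, whose genes encode the same mature c subunit of the ATP synthase ring, was -5.69 and -5.75, or -7.23 and -7.29 per principal transcript. Atp5g1, with 893 counts in all, shares 7.18% of its windows with the pseudogene Gm10039, which had 4088. That share is of a principal transcript of 4715 bases, where that of Atp5g3 has 723. The ratio of this pair depends on these lengths, and the part of reads shared with the pseudogene was not tested. Over these 5 pairs the differences between groups ran from -0.31 to 0.43, with exact 2-sided permutation p values from 0.4 to 0.9, each 0.9 after adjustment over the 5. With 3 libraries against 3 the smallest p such a test allows is 0.1.

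Complex V, the ATP synthase, had a summed level of 2768, 2905 and 3137 CPM in controls and 2780, 2918 and 3031 CPM in cuprizone 30, 31 and 32. The ratio of the group means was 0.99, or 1.16 with unscaled library sizes. Atp5b, the catalytic beta subunit, stood at 919, 996 and 1066 CPM in control and at 997, 1029 and 1053 CPM in cuprizone (log2 fold change 0.05 ± 0.16, SE). Atp5a1, the alpha subunit, stood at 654, 773 and 762 CPM in control and at 760, 755 and 729 CPM in cuprizone. Their mean levels per exonic length were 238 and 236 RPKM, close to 1 to 1, and 527 and 299 RPKM per principal transcript. Among the other tested subunits Atp5mpl, a small membrane protein, had the largest negative log2 fold change at -0.26 ± 0.14, with an edgeR adjusted p of 0.292.

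**Figure D3:**
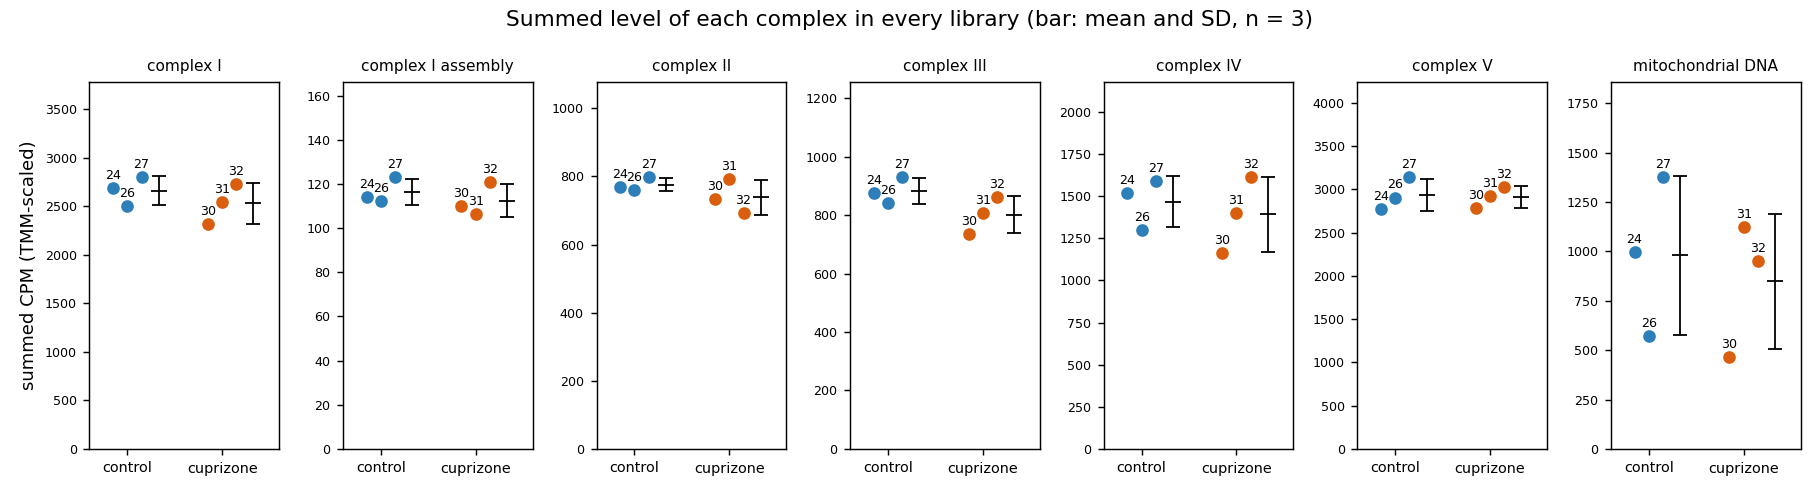
The summed TMM-scaled CPM of the members of each complex (vertical axes, each from 0) is drawn for the 3 control libraries in blue and the 3 cuprizone libraries in orange, with the group mean and SD beside the points. The groups overlap in every panel, and the mitochondrially encoded genes in the last panel spread most, from 466 to 1375 CPM.

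The genes of mitochondrial DNA encode the core of complexes I, III, IV and V, and their transcripts are read by mitochondrial ribosomes that carry no tag. Of 13 such genes 7 were tested. With edgeR 0 of these were called and 0 had an unadjusted p under 0.05, against 7.57% and 23.3% of all genes tested. The sum of the 13 genes was 998, 569 and 1375 CPM in controls 24, 26 and 27. It was 466, 1125 and 953 CPM in cuprizone 30, 31 and 32. Control 26 and cuprizone 30 were the low libraries. The list was uneven as deposited, with mt-Co2, mt-Co3, mt-Atp6, mt-Nd3, mt-Nd4l and mt-Atp8 at 0 counts in all libraries, while mt-Co1 stood at 74.8 to 164 CPM. In the first 5 of these between 98.0% and 100% of the 50-base windows also occur in transcripts of other genes, and in mt-Atp8 0% do. The sum therefore leaves out 6 of 13 genes.

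Control 26 and cuprizone 30 were also low for the nuclear members, and this went with transcript length. Relative to the control mean, the median log2 level of the 47 members with a principal transcript under 1000 bases was 0.06, -0.16 and 0.12 in controls 24, 26 and 27. It was -0.33, -0.10 and 0.09 in cuprizone 30, 31 and 32. For the 21 members of 1500 bases or more the 6 values lay between -0.07 and 0.07. In all 791 protein-coding genes under 1000 bases, cuprizone 30 and control 26 were again the lowest libraries, at 0.11, -0.15 and 0.04 in controls and -0.17, -0.02 and 0.13 in cuprizone. Short members were negative in 41 of 47 cases with a median log2 fold change of -0.11, and long members in 14 of 21 with a median of -0.04. Among all protein-coding genes tested, 412 of 791 short ones were negative with a median of -0.01. Of the 12112 long ones 5576 were negative, with a median of 0.03. The part of transcript length in the lean of the members below 0 was not tested. The fit corrected for GC content and length used exonic length, not that of the principal transcript. In that fit the median over all members was -0.10.

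**Figure D4:**
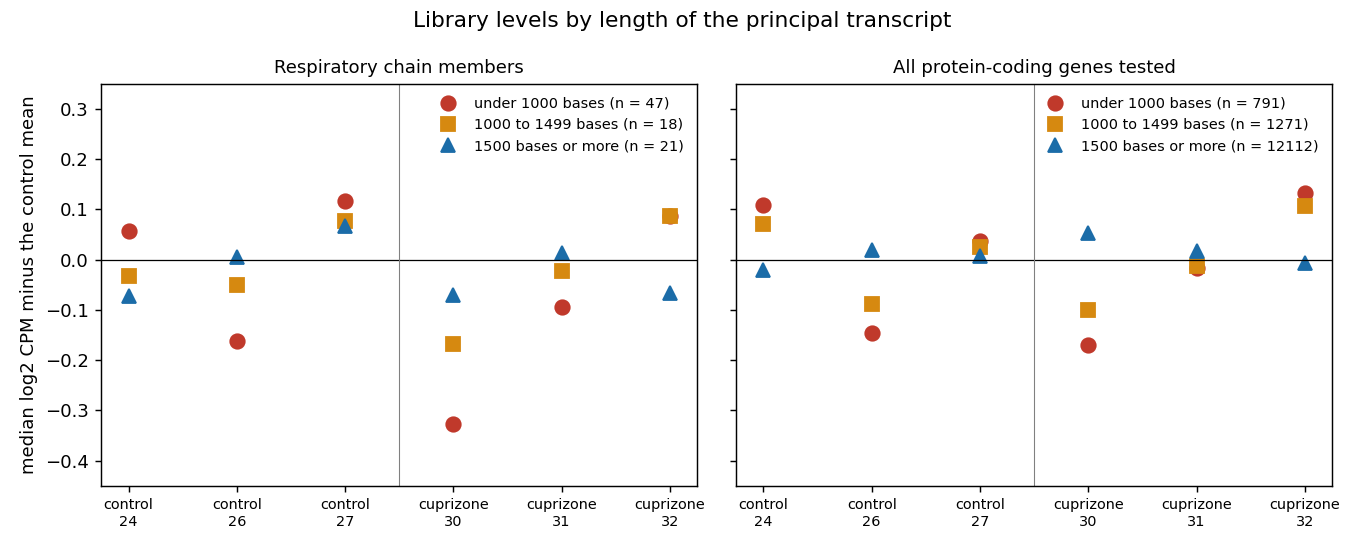
The median log2 CPM minus the control mean (vertical axis) is drawn for each library (horizontal axis) for genes grouped by the length of the principal transcript, members on the left and all protein-coding genes tested on the right. Genes under 1000 bases are lowest in control 26 and cuprizone 30 in both panels, at -0.16 and -0.33 for the members.

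For the 7 members without a test the files hold few counts, and for 3 of them a near-identical copy exists elsewhere in the genome. Atp5g2, a further gene for the c subunit, had 5 counts over all 6 libraries, and 87.4% of its 50-base windows occur in transcripts of other genes. Its 441 coding bases are identical to those of Gm10175 and Gm10231. Atp5l, which encodes subunit g, had 8 counts with 84.8% of windows shared, and Gm10221 carries the same letters over 309 coding bases. Cox7c, a small subunit of complex IV, had 52 counts with 53.0% of windows shared, whereas its copy Gm12338 (chr11:75599763-75599954) had 785 counts and the same 192 coding bases. The Cox7c counts, 6, 4 and 7 in controls and 10, 13 and 12 in cuprizone, did not overlap between groups in CPM either. The level of these 3 genes cannot be read from the counts. Coding sequence of Cox7c and Atp5l is shown as the stretch that makes reads ambiguous, with the differing bases of a further Cox7c copy, Gm10012, in capitals (GENCODE M21 on GRCm38, strand of each gene).
Cox7c, chr13:86044816-86046904, minus strand: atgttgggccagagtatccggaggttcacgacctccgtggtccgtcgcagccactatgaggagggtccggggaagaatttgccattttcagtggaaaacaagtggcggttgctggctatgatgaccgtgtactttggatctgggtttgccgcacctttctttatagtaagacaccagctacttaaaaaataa
Gm10012, chr17:25901856-25902227, plus strand: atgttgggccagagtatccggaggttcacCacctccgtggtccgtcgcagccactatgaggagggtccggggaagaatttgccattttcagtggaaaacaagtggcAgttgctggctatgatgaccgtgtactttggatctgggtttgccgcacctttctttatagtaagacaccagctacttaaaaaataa
Atp5l, chr9:44912557-44920742, minus strand, first 240 bases: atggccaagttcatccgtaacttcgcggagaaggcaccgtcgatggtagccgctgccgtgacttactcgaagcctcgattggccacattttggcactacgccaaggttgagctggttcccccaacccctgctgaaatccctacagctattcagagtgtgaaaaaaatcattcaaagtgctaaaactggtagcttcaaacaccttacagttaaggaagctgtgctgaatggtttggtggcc

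The other untested members share no window with another gene. Cox7b2 and Cox8c, known from testis, had 32 and 0 counts in all, and a count of 0 allows up to 0.128 to 0.177 CPM in a library (3 counts, counting error only). Cox8b, a muscle form, had 52 counts, of which 26 came from control 27. Ndufa4l2, which is induced by low oxygen and marks mural cells of vessels, had 7, 5 and 7 counts in controls 24, 26 and 27 and 4, 9 and 77 in cuprizone 30, 31 and 32. The high count was that of cuprizone 32 alone. In that library the mural gene Rgs5 stood at 43.2 CPM against 4.62 to 8.91 CPM in the others, and the 7 endothelial and mural markers summed to 150 CPM against 55.8 to 98.4 CPM. Their part in the Ndufa4l2 count was not tested.

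**Figure D5:**
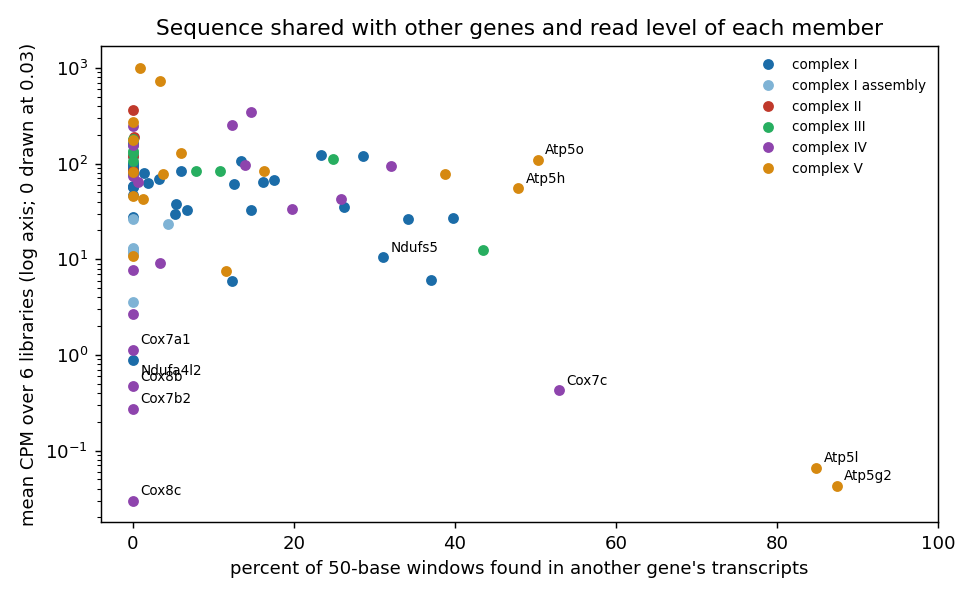
The mean CPM of each member over 6 libraries (vertical axis, log scale) is drawn against the percent of its 50-base windows that occur in transcripts of another gene (horizontal axis), coloured by complex. Atp5g2 and Atp5l lie at the right with 87.4% and 84.8% shared and fewer than 10 counts each, whereas Atp5o at 50.3% shared is at about 110 CPM.

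Sequence shared with other genes was common among the members. At least 1 window was shared in 48 of 93, and over 10% of windows in 30. Members with much sharing did not all have few counts. Atp5o, a subunit of the peripheral stalk, had 50.3% of windows shared and 94.6 to 125 CPM in the 6 libraries. Neither the 27 tested members with over 10% shared nor the other 59 held a called gene, and their median log2 fold changes were -0.11 and -0.08. Exons of 27 tested members lie over those of a gene on the opposite strand. These had a median log2 fold change of -0.08 against -0.09 for the other 59, and they included the 3 members with an unadjusted p under 0.05 (Ndufaf2, Ndufb11 and Ndufab1). The part of antisense reads in those values was not tested.

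The genes that supply and assemble the chain held 0 calls in each list of carriers, copper delivery, assembly and citric acid cycle genes. Over all genes tested 7.57% were called with edgeR and 23.3% had an unadjusted p under 0.05. In lists of 6 to 19 genes 0 calls therefore say little. Copper reaches complex IV through Cox17, Sco1, Sco2, Cox11 and Cox19 and enters mitochondria by Slc25a3, and 0 of these 6 were called with edgeR, with 0 at an unadjusted p under 0.05 and a median log2 fold change of -0.02. Cox17, the copper chaperone of the intermembrane space, stood at 30.8, 22.4 and 28.4 CPM in controls and at 20.02, 24.2 and 27.8 CPM in cuprizone. Of 19 genes of complex IV assembly 0 were called and 1 had an unadjusted p under 0.05, with Cox18, an insertase, at a log2 fold change of 0.41 (edgeR adjusted p of 0.167). Of 11 further assembly genes of complex I 0 were called and 2 had an unadjusted p under 0.05, among them the oxidoreductase Foxred1 at -0.36 (edgeR adjusted p of 0.135). The 10 electron carriers and linked dehydrogenases, the 10 assembly genes of complexes II and III and the 14 citric acid cycle genes held 0 calls, with 1, 0 and 0 genes at an unadjusted p under 0.05.

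Among regulators of mitochondrial biogenesis, genes of the mitochondrial ribosome and those of mitochondrial protein quality control, 1 gene passed the test. Of 13 regulators 0 were called and 0 had an unadjusted p under 0.05. Over all genes tested 7.57% were called and 23.3% had such a p with edgeR. Tfam, which packages and transcribes mitochondrial DNA, stood at 32.01, 34.2 and 35.6 CPM in controls and at 26.96, 31.3 and 27.5 CPM in cuprizone (log2 fold change -0.25, edgeR adjusted p of 0.235). Of 75 genes of the mitochondrial ribosome 1 passed, Mrps6 of the small subunit, which rose from 36.3, 36.2 and 31.6 CPM to 56.4, 52.4 and 46.0 CPM (0.57 ± 0.12, edgeR adjusted p of 0.0349). That call was lost when any library other than cuprizone 32 was left out, with adjusted p from 0.0796 to 0.164, and in the fit corrected for GC content and length (0.0630). In the list of mitochondrial protein quality control 0 of 12 passed and 2 had an unadjusted p under 0.05. Hspa9, the mitochondrial HSP70 chaperone, had the largest log2 fold change there at 0.55 ± 0.13, with 199, 211 and 210 CPM in controls and 327, 314 and 269 CPM in cuprizone. Its edgeR adjusted p was 0.0503, and it passed with DESeq2 (1.5e-04) and limma-voom (0.0470). With edgeR it also passed with upper-quartile (0.0360) and RLE scaling (0.0462), CPM over 1 in 3 libraries (0.0453) and correction for GC content and length (0.0475). Without cuprizone 32 it passed too (0.0138). It did not pass when any other library was left out (edgeR adjusted p from 0.0897 to 0.197) or with no filter on low counts (0.0679).

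The promoters of the members were searched for short stretches of letters, from 250 bases before to 50 after the RefSeq start on GRCm38.p6. Windows were matched for 76 of the 93 members and compared with those of 27025 genes, counting both strands. That comparison set was not limited to the genes tested here or to genes of similar level. The letters GCGCATGCG, part of the site of nuclear respiratory factor NRF1, were in 13.2% of member windows and 1.95% of all windows. CCGGAAG, an ETS site such as GABPA binds, was in 23.7% against 9.93%, and CAAGATGGC, a YY1 site, in 9.21% against 1.42%. GGGCGG, a GC box bound by SP1, was in 46.1% against 38.2%. Genes for NRF1 and GABPA themselves had log2 fold changes of -0.08 and 0.19 with edgeR adjusted p of 0.749 and 0.405.

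The windows of Cox6a1 and Ndufaf8 are shown because they held the most kinds of these letters, 3 of 4 each, with matches in capitals. In Cox6a1 the 2 matches to the NRF1 letters lie on opposite strands and overlap, and 1 GABPA and 2 SP1 matches follow. In Ndufaf8 there was 1 match each for SP1, GABPA and YY1.
Cox6a1, chr5:115348909-115349208, minus strand: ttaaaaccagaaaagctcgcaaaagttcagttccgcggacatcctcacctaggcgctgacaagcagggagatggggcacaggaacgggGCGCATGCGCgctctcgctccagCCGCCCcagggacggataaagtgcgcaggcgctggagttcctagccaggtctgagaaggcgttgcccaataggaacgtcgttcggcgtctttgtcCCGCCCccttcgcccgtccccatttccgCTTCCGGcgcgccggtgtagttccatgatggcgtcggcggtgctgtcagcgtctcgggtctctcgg
Ndufaf8, chr11:120098684-120098983, plus strand: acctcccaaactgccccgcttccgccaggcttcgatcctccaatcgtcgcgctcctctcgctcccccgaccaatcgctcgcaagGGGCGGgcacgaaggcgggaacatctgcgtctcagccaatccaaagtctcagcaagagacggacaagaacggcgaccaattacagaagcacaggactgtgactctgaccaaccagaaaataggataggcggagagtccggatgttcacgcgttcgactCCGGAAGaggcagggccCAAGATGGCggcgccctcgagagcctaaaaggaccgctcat
These letters are a description of the windows, not evidence that a factor binds there. Cox6a1 stood at 290, 218 and 288 CPM in controls and at 192, 244 and 292 CPM in cuprizone (log2 fold change -0.13 ± 0.20, SE). Ndufaf8, an assembly factor, stood at 15.4, 9.63 and 14.8 CPM and at 12.4, 11.8 and 13.7 CPM. The groups overlapped for both genes.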

How the data were processed

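RNA from anti-HA pull-downs of corpus callosum was sequenced in 3 control and 3 cuprizone samples. The authors deposited raw read counts per Ensembl mouse gene. The submitters' processing notes name bcl2fastq 2.17 and mm10. The alignment, the counting, the strand setting and the treatment of reads with several matches, all not given in the sources used here, bear on members with copies or overlapping genes. Of 39017 identifiers 37693 matched GENCODE M21, which gave symbols, coordinates, exonic lengths and principal transcripts.

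The counts were filtered with filterByExpr (minimum count 10, minimum total 15), scaled by TMM and tested across all 16569 remaining genes in R 4.3.3 with edgeR 4.0.16 (glmQLFit, robust, glmQLFTest, 2-sided, Benjamini-Hochberg, threshold 0.05; limma 3.58.1 and DESeq2 1.42.0 as alternatives). The common biological coefficient of variation was 0.215. The procedure was also run on simulated data. The changes added there were larger than those of the members, so that run does not bear on changes of their size. Totals of 18549360 to 22381307 counts limit the precision of genes at a few CPM. The chi-square per degree of freedom between replicates was 24.4 to 101, so each library counted as 1 replicate. Sequence sharing was counted over windows of 50 bases against transcripts of all other GENCODE genes.

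The members and lists were chosen with earlier results of these data known. Genes named are the highest per length and the largest changes of each complex, a set list of subunits and isoforms, and the 3 smallest adjusted p values of each pathway list; other names were chosen after their values were seen. Protein sequences were not used here. Values of 1 member are not reported here, and it stays in every count and sum.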

Additional observations from a re-analysis of the deposited data

How the results depend on the processing

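No paired analysis was possible because the groups share no replicate number. The median log2 fold change of the members ran from -0.17 to -0.03 with 1 library left out, against -0.09 with all. Other alternatives run were RLE and upper-quartile scaling and TMM without myelin, mitochondrially encoded and the 20 most abundant genes. Further ones were no filter, CPM over 1 in 3 libraries, DESeq2, limma-voom, and GC content and exonic length trends removed. In all these settings the median moved from -0.09 by less than 0.151, the larger of the 2 groups' SDs of the members' median. Leaving out 1 of 3 libraries moves a group mean by less than the SD of its libraries. For those fits the bound is thus no test of stability. The bound is also larger than the size of the median itself. It therefore cannot show for the other settings whether the lean below 0 held. With upper-quartile scaling the median was -0.03. No member was called higher in these settings except 1 without cuprizone 30 (0 to 1 with a library left out, in complex I), and no member lower except 1 with DESeq2, an assembly factor of complex I. The share of all genes called ran from 3.24% to 8.53% with a library left out. With unscaled library sizes the ratio of summed levels, cuprizone over control, was 1.11 for complex I, 1.11 for complex II and 1.11 for complex IV. It was 1.13 for the assembly factors of complex I, 1.06 for complex III and 1.16 for complex V. The cause was not tested. The share of member promoters with the SP1 letters was 23.7% in a window of 50 bases before to 50 after the start, against 24.2% of all genes. Restricting the members to those with at most 10% of windows shared, an alternative chosen after seeing the data, left 0 calls and a median of -0.08. Of 1022 values of 73 named genes under these alternatives, 1001 kept their call, 11 lost it, 10 gained one and 0 reversed. Depth limits the members at a few CPM, such as Cox7a1 and Cox4i2, whose intervals reached past 2-fold.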
